A study of Mus musculus with 5 samples.

Results

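The genes described here encode the water channel complex of the astrocyte end-foot and its anchor to the vessel wall: *Aqp4*, *Mlc1*, *Hepacam*, *Dag1*, *Dtna*, *Dmd*, *Utrn* and *Sntb1*. They were chosen by name, and all 8 were found once each among the 34615 gene symbols of the deposited files and passed the filter for testing. RNA had been sequenced from brain microvascular fragments of 3 wild-type (WT) and 2 heterozygous Ins2-AKITA mice, with 1 library per mouse. All mice were males on the C57BL6 background and between 26 and 38 weeks old, and the WT mice were littermates of the mutants. Ins2-AKITA mice carry a mutated copy of the insulin 2 gene in every cell, become hyperglycemic from insulin deficiency and stop gaining weight, so that glucose and insulin cannot be told apart in this model. The fragments were captured with beads against PECAM1 on endothelial cells and hold the pericytes and astrocyte end-feet that stay attached. The comparison asks whether lasting hyperglycemia changes the RNA of the end-foot complex at the blood-brain barrier.

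Astrocytes wrap brain vessels with end-feet, whose vessel-facing membrane is packed with the water channel aquaporin-4. The channel is held there by syntrophins and dystrobrevin on a dystrophin scaffold, which is tied through dystroglycan to laminin, agrin and perlecan of the basement membrane. MLC1 and its partner HepaCAM (GlialCAM) sit in the same membrane, and mutations in either cause a leukodystrophy with swollen white matter. Utrophin is the close relative of dystrophin and can take its place in the complex in many tissues. None of the exons of the 8 genes overlaps an exon of another annotated gene, so the FPKM values (fragment counts divided by exon length and library size) are not shared with neighbours.

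The annotated starts of 3 of these genes are shown because they set what a gene-level value can hold. The sequences are RefSeq promoter windows of assembly GRCm38.p6, from 250 bases before to 50 bases after a start, and 5 of the 8 genes had a window that was used. Capitals mark 5 short motifs that were searched on both strands. GGGCGG is the GC box bound by SP1. The CCAAT box is spelled by its name. TATAAA is the TATA box that places the start in some promoters. ACAATG is a core bound by SOX factors. The half-site of nuclear factor I, TTGGC, can overlap a CCAAT box on the other strand. *Dmd* has a window at its upstream start (chrX:82948620-82948919, plus strand) and another at an internal start near the other end of the gene (chrX:85048045-85048344, plus strand). *Mlc1* (chr15:88978504-88978803, minus strand) and *Hepacam* (chr9:37367356-37367655, plus strand) are shown side by side because their values ranked the 5 mice alike.
Dmd upstream: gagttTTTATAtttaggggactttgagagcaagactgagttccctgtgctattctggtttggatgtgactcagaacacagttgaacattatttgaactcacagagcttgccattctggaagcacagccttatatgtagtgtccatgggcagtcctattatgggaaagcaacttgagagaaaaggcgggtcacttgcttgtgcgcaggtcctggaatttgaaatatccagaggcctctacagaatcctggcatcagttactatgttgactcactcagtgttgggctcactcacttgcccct
Dmd internal: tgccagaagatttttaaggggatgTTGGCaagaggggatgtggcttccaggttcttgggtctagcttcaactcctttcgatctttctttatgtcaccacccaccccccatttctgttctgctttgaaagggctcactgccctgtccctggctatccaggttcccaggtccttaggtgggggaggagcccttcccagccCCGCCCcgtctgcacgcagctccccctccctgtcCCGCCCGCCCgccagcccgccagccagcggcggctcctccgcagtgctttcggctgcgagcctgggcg
Mlc1: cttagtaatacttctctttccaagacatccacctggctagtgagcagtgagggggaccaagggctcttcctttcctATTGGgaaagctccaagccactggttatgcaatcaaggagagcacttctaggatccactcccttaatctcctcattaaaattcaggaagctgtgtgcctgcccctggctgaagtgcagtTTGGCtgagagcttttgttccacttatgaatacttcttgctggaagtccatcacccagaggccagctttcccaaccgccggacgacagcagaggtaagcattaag
Hepacam: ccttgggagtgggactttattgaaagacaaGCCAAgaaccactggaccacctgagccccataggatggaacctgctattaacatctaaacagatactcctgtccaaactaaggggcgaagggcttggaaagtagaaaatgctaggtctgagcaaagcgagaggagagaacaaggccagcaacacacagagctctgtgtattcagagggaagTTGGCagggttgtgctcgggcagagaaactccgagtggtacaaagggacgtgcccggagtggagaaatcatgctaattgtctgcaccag

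The upstream *Dmd* window had a GC content of 45.7%, 2 CpG dinucleotides and a match to TATAAA. That match lies on the opposite strand at the far upstream end of the window, away from the start. The internal window had 62.7% GC, 14 CpG and 3 matches to GGGCGG. Short dystrophins of glia and other tissues are known to start from internal promoters, so the single *Dmd* FPKM joins products of starts as unlike as these. The *Mlc1* and *Hepacam* windows had 49.7% and 50.7% GC, 3 and 6 CpG, and no match to GGGCGG. *Mlc1* had 1 match to CCAAT and 1 to TTGGC, and *Hepacam* 2 to TTGGC. Of all 32851 windows, which had a median of 52.7% GC and 7 CpG, 35.7% held GGGCGG, 37.4% CCAAT, 13.6% TATAAA, 12.6% ACAATG and 46.7% TTGGC. The widely expressed *Dag1* stood apart, with 2 overlapping windows of 75.3% and 69.7% GC that held 47 and 30 CpG and 4 and 3 matches to GGGCGG. The *Utrn* window had 46% GC, 2 CpG and no match to any of the motifs. A match to so short a motif is a description and does not show binding.

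The files list no depth. The smallest FPKM steps put it at about 1162000, 1328634 and 2866000 fragments for WT replicates 1, 2 and 3, and at about 1130000 and 1289471 for Ins2-AKITA replicates 1 and 2. WT replicate 3 was therefore measured most precisely. The captured material held more than vessels. Endothelial markers summed to between 389 and 656 FPKM in WT and 327 and 419 FPKM in Ins2-AKITA mice (8 genes, *Cldn5* highest), while astrocyte markers summed to between 2302 and 3005 FPKM in WT and 3405 and 3986 FPKM in Ins2-AKITA mice (8 genes, *Slc1a2* highest). None of the markers of either list was at 0 in any mouse. Oligodendrocyte markers summed to between 1875 and 2554 FPKM over the 5 mice (5 genes). Neuronal markers summed to between 661 and 777 FPKM (6 genes) and microglial markers to between 42.1 and 82.5 FPKM (5 genes). In such bulk samples, more or fewer end-feet and more or less RNA per end-foot cannot be told apart. Any RNA of the 8 genes from other captured cells cannot be separated either.

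The 8 genes were well expressed except for *Sntb1*. By mean FPKM over the 5 mice (± SD, n = 5), *Dmd* at 74.2 ± 19.1 and *Mlc1* at 74.1 ± 19.2 came first. *Dtna* followed at 68.3 ± 9.31, *Utrn* at 59.4 ± 6.74, *Hepacam* at 55.8 ± 6.53, *Aqp4* at 49.3 ± 18.0, *Dag1* at 28.9 ± 2.40 and *Sntb1* at 10.6 ± 3.59. FPKM is a value per length, so levels of different genes can be set beside each other, but only roughly. The length depends on which transcripts are assumed, and 16 are annotated for *Dmd* and 9 for *Dtna*. Of the 7 steps in this order, only the last held in 5 of 5 mice, *Dag1* over *Sntb1* (exact two-sided sign-flip p = 0.0625, the smallest possible with 5 mice). *Dmd* was above *Mlc1* in 2 of 5 mice, and the other steps held in 3 or 4 of 5 mice (smallest exact sign-flip p = 0.125). Of these other steps, *Aqp4* over *Dag1* was the largest, with a mean log2 ratio of 0.68 ± 0.59 (SD, n = 5). *Dtna* was above between 91.1% and 94.1% of the 16286 tested genes in every mouse, and *Sntb1* above between 43.2% and 66.4%.

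No member differed between the genotypes at an adjusted p of 0.05 in limma. Of the 8 genes, 0 were called higher and 0 lower, beside 0% of all 16286 tested genes called higher and 0.0246% called lower. At an unadjusted p under 0.05 there were also 0 of 8 in either direction, beside 1.53% of all genes higher and 2.93% lower. The log2 fold change (Ins2-AKITA minus WT, on log2(FPKM + 1)) was above 0 for *Aqp4*, *Mlc1*, *Hepacam* and *Dtna* and below 0 for *Dag1*, *Dmd*, *Utrn* and *Sntb1*, so above 0 for 4 of 8, beside 46.5% of all genes. The median over the 8 genes was 0.06 and that over all tested genes -0.03. The groups overlapped for 8 of 8 members, while among all genes both mutants exceeded every WT mouse in 9.24% and fell short of every WT mouse in 10.3%. With 3 mice against 2, an exact permutation test over the 10 splits cannot give a p below 0.1.

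**Figure D1:**
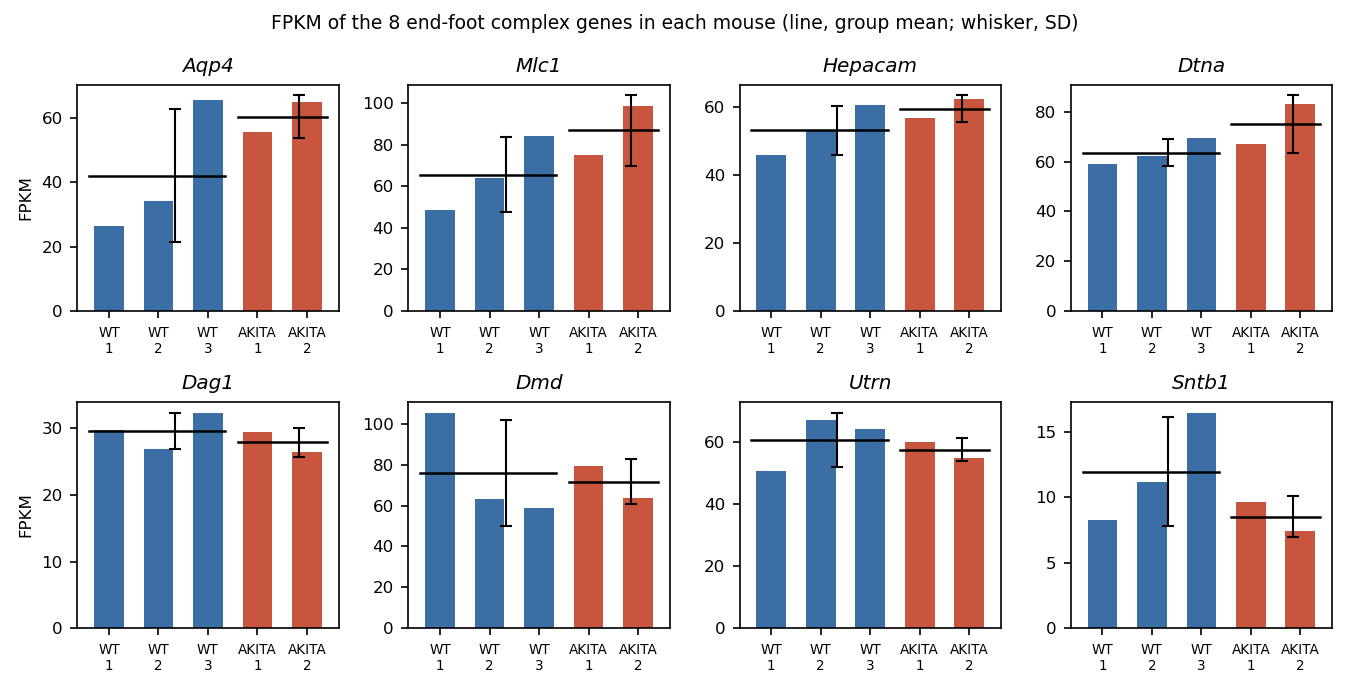
Bars give the deposited FPKM of each of the 8 genes in WT replicates 1 to 3 (blue) and Ins2-AKITA replicates 1 and 2 (red), from 0, with the group mean as a line and the SD as a whisker (n = 3 and 2). The *Aqp4* bars span 26.4 FPKM in WT replicate 1 to 65.4 FPKM in WT replicate 3, while the *Dag1* bars lie between 26.3 and 32.2 FPKM.

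Of the 8 genes, the water channel gene itself had the widest fold range over the 5 mice, 2.48. *Aqp4* (ENSMUSG00000024411, chromosome 18 of NCBIM37 from 15547903 to 15562193, minus strand) had an FPKM of 26.4, 34.2 and 65.4 in WT replicates 1 to 3 and of 55.6 and 65.0 in Ins2-AKITA replicates 1 and 2. Both Ins2-AKITA mice lay above WT replicates 1 and 2, and WT replicate 3 lay above both. The means were 42.0 ± 20.7 FPKM (SD, n = 3) in WT and 60.3 ± 6.69 FPKM (SD, n = 2) in Ins2-AKITA mice, a ratio of 1.44, while the WT mice alone spanned 2.48-fold. The log2 fold change was 0.61 with a standard error of 0.38 and a 95% interval from -0.31 to 1.54 (limma adjusted p = 0.90, exact two-sided permutation p = 0.4). The value rested on single WT mice: it was 0.98 without WT replicate 3 (limma adjusted p = 0.56, from 0.0083 unadjusted) and 0.34 without WT replicate 1.

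*Mlc1* and *Hepacam*, the partner proteins of the end-foot membrane, ranked the mice like each other, and WT replicate 1 was the lowest for both as it was for *Aqp4*. *Mlc1* (ENSMUSG00000035805, chromosome 15 from 88786314 to 88809437, minus strand) had 48.6, 64.1 and 84.3 FPKM in WT and 74.9 and 98.9 FPKM in Ins2-AKITA mice. Ins2-AKITA replicate 2 was the highest mouse, and Ins2-AKITA replicate 1 lay inside the WT range. The log2 fold change was 0.42 (standard error 0.28, 95% interval -0.25 to 1.09, limma adjusted p = 0.90), and it ranged from 0.22 without WT replicate 1 or without Ins2-AKITA replicate 2 to 0.62 without WT replicate 3 or without Ins2-AKITA replicate 1.

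*Hepacam* (ENSMUSG00000046240, chromosome 9 from 37174953 to 37194157, plus strand) had 46.1, 53.0 and 60.7 FPKM in WT and 56.9 and 62.4 FPKM in Ins2-AKITA mice. Only Ins2-AKITA replicate 2 was above the WT range, by less than 2 FPKM. Its log2 fold change was 0.17 (standard error 0.20, 95% interval -0.30 to 0.64, limma adjusted p = 0.91), and it ranged from 0.07 without WT replicate 1 to 0.27 without WT replicate 3. *Hepacam* has a single annotated transcript of 3327 bases, so its fragments could be estimated, as 166, 218 and 537 for WT and as 200 and 250 for the mutants. The exact Poisson 95% intervals on the FPKM scale, which cover counting error only, ran from 39.4 to 53.7 in WT replicate 1 and from 54.9 to 70.7 in Ins2-AKITA replicate 2 and did not overlap. They overlapped between WT replicate 3 (55.6 to 66.0) and either Ins2-AKITA mouse.

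α-Dystrobrevin joins the syntrophins to dystrophin. *Dtna* (ENSMUSG00000024302, chromosome 18 from 23573916 to 23818215, plus strand) had 59.2, 62.4 and 69.5 FPKM in WT and 67.1 and 83.3 FPKM in Ins2-AKITA mice. WT replicate 3 lay between the Ins2-AKITA mice, and the other two WT mice lay below both. In limma the log2 fold change was 0.23 (standard error 0.19, 95% interval -0.23 to 0.69, limma adjusted p = 0.90, exact permutation p = 0.3). It was 0.08 without Ins2-AKITA replicate 2 and 0.39 without Ins2-AKITA replicate 1.

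The order of the mice was shared across the genotypes. From low to high, *Mlc1*, *Hepacam* and *Dtna* all ranked WT replicate 1, WT replicate 2, Ins2-AKITA replicate 1, WT replicate 3 and Ins2-AKITA replicate 2, an order found in 514 of the 16286 tested genes (3.16%). Sarcospan (*Sspn*), a small membrane protein of the dystrophin complex, had it too. The same order except that WT replicate 3 came last was found in 1.25% of tested genes. Among the listed genes, it was that of *Aqp4*, the potassium channel gene *Kcnj10*, the dystroglycan glycosylation gene *Pomk* and the oligodendrocyte marker *Mbp*. WT replicate 1 was the lowest mouse for 5 of the 8 genes (*Aqp4*, *Mlc1*, *Hepacam*, *Dtna* and *Utrn*), beside 24.3% of all tested genes. WT replicate 1 was also the lowest mouse for the summed astrocyte, oligodendrocyte and microglial markers, and not for the other marker lists. These orders over 5 libraries are given as a description.

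**Figure D2:**
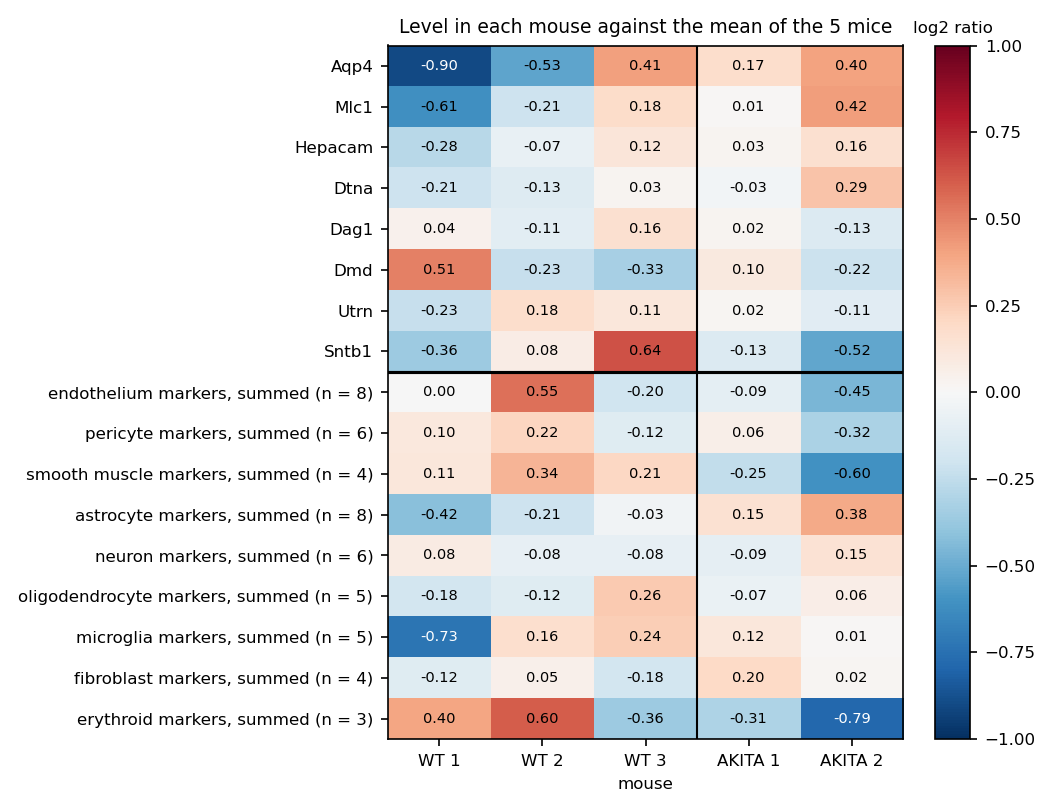
Colour and number give the log2 ratio of the FPKM in each mouse to the mean of the 5 mice, for the 8 genes (above the line) and for the summed FPKM of each marker list (below it, number of genes in brackets). WT replicate 1 is blue for *Aqp4*, *Mlc1*, *Hepacam* and *Dtna* and red for *Dmd*, and the astrocyte row runs from 2302 FPKM in WT replicate 1 to 3986 FPKM in Ins2-AKITA replicate 2.

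The summed FPKM of the astrocyte markers did not overlap between the groups, 4 of the 8 markers were higher in both mutants than in any WT mouse (beside 9.24% of all genes), and their median log2 fold change was 0.38. None of them passed an adjusted p of 0.05 in limma. The highest fold change was that of *Aldh1l1*, a folate enzyme that marks astrocytes, with 37.9, 28.5 and 41.6 FPKM in WT and 75.3 and 72.1 FPKM in Ins2-AKITA mice (log2 fold change 1.03, limma adjusted p = 0.80, from 0.0029 unadjusted). Smooth muscle markers summed to between 212 and 249 FPKM in WT and between 129 and 166 FPKM in Ins2-AKITA mice, with all 4 below the WT range in both mutants, beside 10.3% of all genes. Of these 4 markers, 3 had an unadjusted limma p under 0.05, beside 2.93% of all genes, and none passed adjustment (adjusted p = 0.90 each). Endothelial and pericyte markers were mostly lower too, but their sums overlapped between the groups. For endothelium, 6 of 8 log2 fold changes were below 0 (median -0.39). Both mutants fell short of every WT mouse for 3 of the 8. For pericytes, 5 of 6 were below 0 (median -0.42), and 1 of the 6 separated the groups. The part of the astrocyte marker difference in the values of *Aqp4*, *Mlc1*, *Hepacam* and *Dtna* was not tested.

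Set against the summed astrocyte markers of the same mouse, a measure chosen after the values were seen, *Aqp4* came to 11.5, 12.9 and 21.8 per 1000 in the WT mice and to 16.3 per 1000 in both mutants. *Mlc1* came to 21.1, 24.1 and 28.0 per 1000 in the WT mice, against 22.0 and 24.8 per 1000 in the mutants. Both mutants lay inside the WT range for both genes. *Hepacam* was even among the WT mice on this measure, with 20.0, 20.0 and 20.2 per 1000, and lower in both Ins2-AKITA mice, with 16.7 and 15.7 per 1000 (exact permutation p = 0.1, the smallest possible). *Dag1*, *Dtna*, *Utrn* and *Sntb1* were also lower in both mutants than in any WT mouse. This makes 5 of 8 genes, beside 36.6% of all tested genes on the same measure (1.22% were higher). The astrocyte sum was itself higher in both mutants than in any WT mouse, so a gene with level FPKM falls on this measure. Without the division, the groups overlapped for 8 of 8 genes. *Slc1a2*, the main astrocyte glutamate transporter, supplied much of the sum. Without it, 2 of the 8 genes were below the WT range (*Dag1* and *Dtna*), beside 24.6% of all genes (1.88% were above it), and *Hepacam* overlapped. Against the summed endothelial markers the groups overlapped for 8 of 8 genes, beside 16.1% of all genes higher and 2.92% lower without overlap.

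Dystroglycan, the receptor that links the complex to the basement membrane, was the steadiest member. *Dag1* (ENSMUSG00000039952, chromosome 9 from 108108286 to 108166255, minus strand) had 29.7, 26.8 and 32.2 FPKM in WT and 29.4 and 26.3 FPKM in Ins2-AKITA mice. The groups overlapped, and the highest mouse was 1.22-fold above the lowest. This gave a log2 fold change of -0.08 (standard error 0.19, 95% interval -0.55 to 0.38, limma adjusted p = 0.96), between -0.16 without Ins2-AKITA replicate 1 and -0.0063 without Ins2-AKITA replicate 2.

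The dystrophin scaffold and its relative showed no common direction across mice. *Dmd* (ENSMUSG00000045103, chromosome X from 80194209 to 82451480, plus strand) had 105, 63.3 and 58.9 FPKM in WT and 79.4 and 63.9 FPKM in Ins2-AKITA mice. WT replicate 1, the lowest mouse for *Aqp4*, was the highest for *Dmd*. The log2 fold change was -0.04 (standard error 0.29, 95% interval -0.75 to 0.67, limma adjusted p = 0.99) and became 0.22 without WT replicate 1. The annotation holds 16 *Dmd* transcripts of 369 to 14910 bases, and which of them the fragments came from is not given by a value per gene.

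*Utrn* (ENSMUSG00000019820, chromosome 10 from 12101986 to 12589163, minus strand) had 50.6, 67.1 and 64.3 FPKM in WT and 60.1 and 54.8 FPKM in Ins2-AKITA mice. Both Ins2-AKITA mice lay inside the WT range. For *Utrn* the log2 fold change was -0.07 (standard error 0.20, 95% interval -0.55 to 0.42, limma adjusted p = 0.97).

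β1-Syntrophin, an adaptor that binds dystrophin and utrophin, was the least abundant member and had the lowest fold change. *Sntb1* (ENSMUSG00000060429, chromosome 15 from 55470398 to 55738504, minus strand) had 8.24, 11.2 and 16.5 FPKM in WT and 9.65 and 7.40 FPKM in Ins2-AKITA mice. Ins2-AKITA replicate 2 was the lowest of all mice, and Ins2-AKITA replicate 1 lay inside the WT range. Here the log2 fold change was -0.40 (standard error 0.34, 95% interval -1.22 to 0.41, limma adjusted p = 0.90), and it ranged from -0.62 without WT replicate 1 to -0.16 without WT replicate 3. With the longest annotated transcript of 2464 bases, the values correspond to about 21, 33 and 105 fragments for WT and about 24 and 21 for the mutants, and the Poisson 95% interval of WT replicate 1 ran from 5.10 to 12.6 FPKM. The difference between WT replicate 1 and either Ins2-AKITA mouse was therefore not detectable at this depth, whereas the intervals of WT replicate 3 (13.5 to 19.9) and Ins2-AKITA replicate 2 (4.58 to 11.3) did not overlap.

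**Figure D3:**
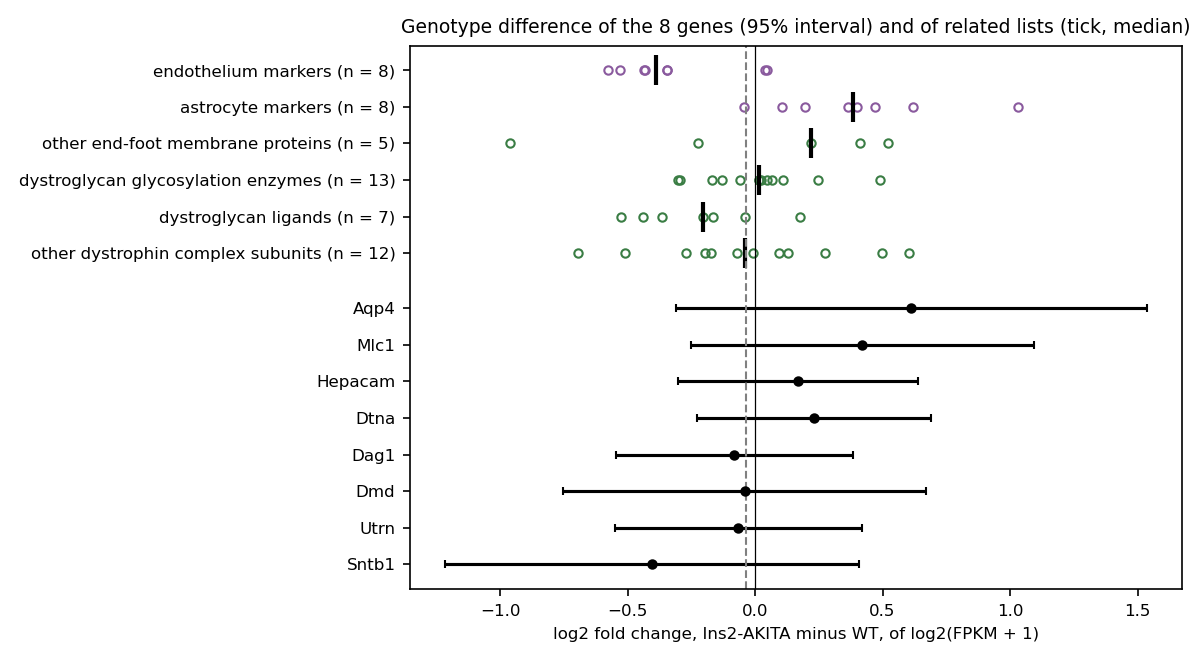
Filled points give the log2 fold change (Ins2-AKITA minus WT, on log2(FPKM + 1)) of the 8 genes with the limma 95% interval, and open points give single genes of the related lists (green) and of the astrocyte and endothelium markers (purple), with the list median as a tick. All 8 intervals include 0, and the dashed line marks the median of all tested genes at -0.03.

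Ratios of 2 genes within a mouse do not depend on how the mice are scaled to each other. Of 6 ratios compared, none separated the genotypes (smallest exact two-sided permutation p = 0.2, smallest adjusted p = 0.6 over the 6). *Aqp4*/*Mlc1* was 0.543, 0.533 and 0.776 for WT, against 0.742 and 0.658 for the mutants, so that *Mlc1* exceeded *Aqp4* in every mouse. *Aqp4*/*Dag1*, the channel over its matrix anchor, was 0.887, 1.28 and 2.03 for WT, against 1.89 and 2.47 for the mutants. It had the largest difference of the 6, 0.71 on the log2 scale, against a WT SD of 0.60, and was 0.43 without WT replicate 1 and 1.02 without WT replicate 3.

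*Dtna*/*Dag1* was 1.99, 2.33 and 2.16 for WT, against 2.28 and 3.16 for the mutants, a difference of 0.32 on the log2 scale (exact permutation p = 0.2) that was 0.08 without Ins2-AKITA replicate 2 and 0.55 without Ins2-AKITA replicate 1. *Utrn*/*Dmd* was 0.480 in WT replicate 1 but 1.06 and 1.09 in WT replicates 2 and 3, against 0.757 and 0.858 for the mutants. Both mutants lay between WT replicate 1 and the rest, and the difference of the means was -0.03 on the log2 scale. *Mlc1*/*Hepacam* and *Sntb1*/*Dag1* differed by 0.25 and -0.36 on the log2 scale, with overlapping groups in both. With 1 mouse left out they ranged from 0.12 to 0.39 and from -0.60 to -0.16.

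**Figure D4:**
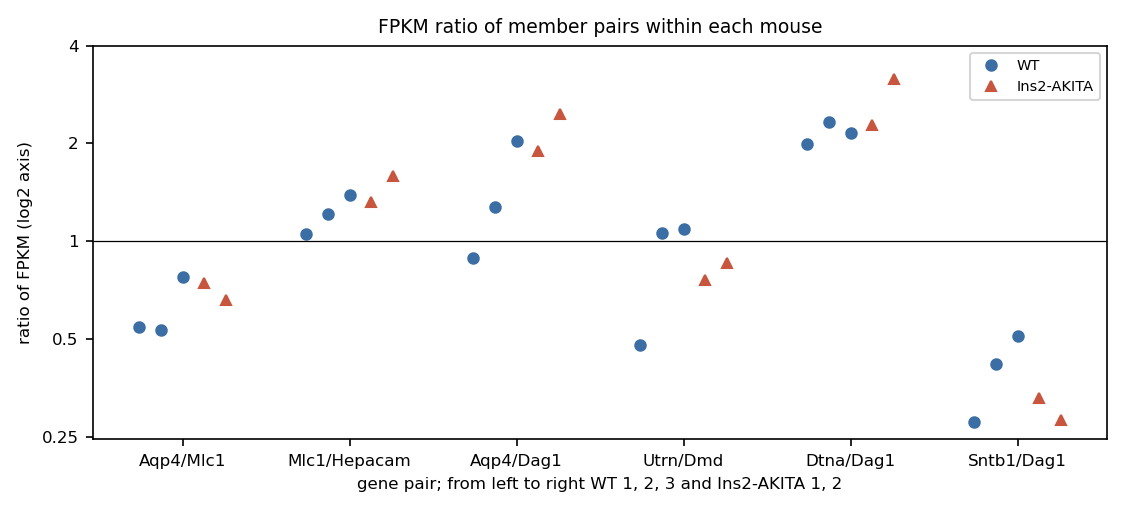
Points give the FPKM ratio of 6 gene pairs within each mouse on a log2 axis, for WT (blue circles) and Ins2-AKITA (red triangles) mice. *Aqp4*/*Dag1* spans 0.887 to 2.47 and *Utrn*/*Dmd* 0.480 to 1.09, and the groups overlap in all 6 pairs.

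The rest of the machinery was described from 4 lists of 39 genes, of which 37 passed the filter. In limma 0 of the 37 were called in either direction, 17 had a log2 fold change above 0 and 20 below, and the median was -0.04. For 2 of them both mutants were above the WT range and for 5 below it, beside 9.24% and 10.3% of all genes. Only *Clcn2* had an unadjusted p under 0.05, beside 2.93% of all genes in that direction.

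The other end-foot membrane proteins spread widest. *Clcn2*, a chloride channel that HepaCAM brings to cell contacts, had 41.9, 41.2 and 19.8 FPKM in WT and 17.9 and 14.7 FPKM in Ins2-AKITA mice (log2 fold change -0.96 ± 0.36 SE, limma adjusted p = 0.90, from 0.037 unadjusted). WT replicate 3 lay close to the mutants and far from the other WT mice. *Gja1*, the main connexin of astrocytes, was the most abundant at a mean of 160 FPKM and had 113, 113 and 189 FPKM in WT and 176 and 212 FPKM in Ins2-AKITA mice (log2 fold change 0.52, limma adjusted p = 0.90). *Kcnj10* had 44.4, 63.6 and 112 FPKM in WT and 81.0 and 102 FPKM in Ins2-AKITA mice, and so ranked the mice as *Aqp4* did.

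Of 14 other subunits of the dystrophin complex, 12 were tested, with a median log2 fold change of -0.04. *Sspn* had the highest, 0.60, with 4.07, 6.51 and 10.1 FPKM in WT and 9.28 and 11.6 FPKM in Ins2-AKITA mice. *Sgcd*, δ-sarcoglycan, had the lowest, -0.70, with 43.6, 39.4 and 15.8 FPKM in WT and 24.8 and 13.3 FPKM in Ins2-AKITA mice. *Dtnb*, β-dystrobrevin, was the most abundant at a mean of 102 FPKM.

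The 7 ligands of dystroglycan had a median log2 fold change of -0.20, between -0.53 for *Lama5* and 0.18 for *Lama2*. *Lama5*, the laminin α5 chain of vessel basement membranes, had 11.6, 10.7 and 8.67 FPKM in WT and 9.92 and 4.59 FPKM in Ins2-AKITA mice. *Lama2*, the laminin α2 chain, had 4.45, 5.98 and 7.29 FPKM in WT and 6.72 and 6.67 FPKM in Ins2-AKITA mice.

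The 13 enzymes that build the laminin-binding sugar chain on dystroglycan had a median log2 fold change of 0.02. The lowest was *Pomgnt2* (C85492 in the annotation) at -0.30. *Pomgnt2* had 9.71, 12.8 and 10.8 FPKM in WT and 10.6 and 7.26 FPKM in Ins2-AKITA mice, so the groups overlapped.

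The genes most like *Aqp4* over the 5 mice were sought among 11262 others with a mean of at least 5 FPKM, by the root mean square difference of log2(FPKM + 1) values after each gene was centred on its mean. The nearest were *Fam181b* (0.02), *Ednrb*, an endothelin receptor of astrocytes (0.06), and *Dio2*, the enzyme that activates thyroid hormone in astrocytes (0.06). *Ednrb* had 13.1, 18.9 and 32.9 FPKM in WT and 29.9 and 33.6 FPKM in Ins2-AKITA mice. Among the 8 genes, *Mlc1* was nearest to *Aqp4* at 0.22 (rank 167), and *Dmd* was farthest at 0.76 (rank 8111). The nearest to *Dag1* were *Caskin1*, *Gpx8* and *Bbs1* (0.03 each), and the nearest member was *Utrn* at 0.17 (rank 1384).

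**Figure D5:**
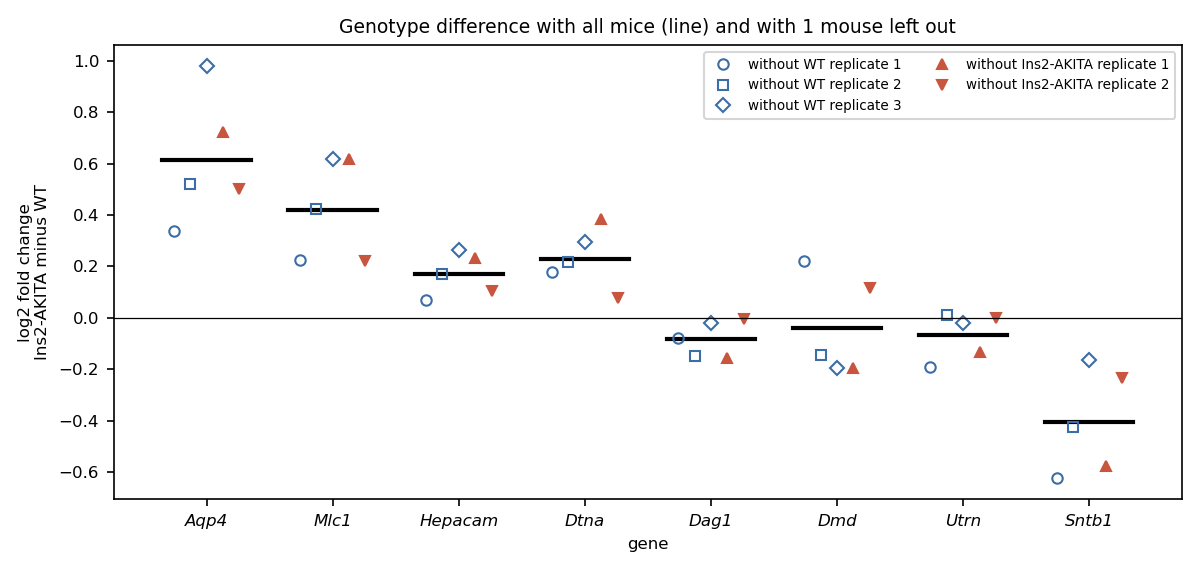
Lines give the log2 fold change (Ins2-AKITA minus WT) of each gene with all 5 mice, and symbols give it with 1 mouse left out. *Aqp4* runs from 0.34 without WT replicate 1 to 0.98 without WT replicate 3, while *Dmd* and *Utrn* have values on both sides of 0.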

How the data were processed

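Microvascular RNA of 5 mice was used, with 1 library each. The authors depleted rRNA and built strand-specific libraries. The submitters' processing notes name TopHat2 2.0.4 for alignment to NCBIM37, Picard 1.92 for duplicate removal and Cufflinks 2.2.1 for testing. The program behind the deposited FPKM values of single mice is not given in the sources used here. Removing duplicates can lower highly expressed genes. Identifiers were matched to GENCODE vM1 of NCBIM37 (37197 of 37982), and rows sharing a symbol were summed. Genes averaging 1 FPKM or more entered one limma 3.58.1 fit (R 4.3.3) of log2(FPKM + 1) by genotype, with an eBayes trend and Benjamini-Hochberg adjustment. This scale understates changes of low genes. Depth was estimated with genes of 1 transcript between 1000 and 6000 bases, of which 97.4% to 97.8% per mouse fell within 0.05 of whole fragments (up to 5). Exact permutation tests used the 10 splits of the 5 mice, with Python 3.11.15 and scipy 1.17.1. The fit was run on simulated data with larger changes than those of the members, to check the bias of its fold changes. That run does not show how often changes as small as those of the members would be called.

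The members and lists were chosen with earlier results of these data known. Named were the 8 members and the 3 nearest profiles. Of each related list, the genes with an unadjusted limma p under 0.05, the extremes and the most abundant gene were named. *Kcnj10*, *Pomk* and single markers were named after their values were seen. Some genes that this rule names are not reported here. Alternatives tried were TPM and median-ratio scaling, a pseudocount of 0.1, filters at 5 or at any value above 0, a constant prior, the replicate block, the highest row per symbol and each mouse left out. Leaving out mice for the overlap count and dividing by marker sums were added after the values were seen.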

Additional observations from a re-analysis of the deposited data

How the results depend on the processing

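The counts of 0 members called higher and 0 lower held under every alternative run, with a smallest adjusted p of a member in limma between 0.27 (TPM) and 1.00 (without WT replicate 2). With the replicate block, 2 members had an unadjusted limma p under 0.05 (*Aqp4* and *Mlc1*). Of all 16286 tested genes, 440 were higher and 809 lower at that threshold in the same fit. *Aqp4* alone passed it without WT replicate 3, beside 494 genes higher and 908 lower, and with TPM, beside 1808 higher and 105 lower. In the other fits that kept both Ins2-AKITA mice, 0 members passed it. At an adjusted p of 0.05 in limma, TPM gave 58 higher and 30 lower over all genes, against 0 and 4. A constant prior gave 1 higher and 2 lower, and 2 were lower without the filter and at a mean FPKM of 5. With 1 mouse left out the counts ranged from 0 to 10 and from 1 to 6. TPM divides by FPKM sums that ran from 1531575 to 13025905, moved the median of all genes to 1.07 and that of the members from 0.06 to 1.65, and made the log2 fold changes of *Dag1* (1.38), *Dmd* (1.58), *Utrn* (1.52) and *Sntb1* (0.77) positive; against the median of all genes *Sntb1* was then at -0.30 and *Dag1* at 0.31. Median-ratio factors lay between 0.976 and 1.04. With 1 mouse left out, *Dmd* ranged from -0.20 to 0.22, *Utrn* from -0.19 to 0.010, *Utrn*/*Dmd* from -0.42 to 0.18 on the log2 scale, and the members without overlap from 0 to 5 (3 without WT replicate 1, 4 without WT replicate 3, 5 without Ins2-AKITA replicate 1), against 0 with all mice and 1 with TPM. The share of all genes without overlap was 29.6%, 41.6% and 54.0% in those left-out designs, 19.5% with all mice and 33.9% with TPM. Without WT replicate 2, 1 member did not overlap, beside 28.3% of all genes. Without Ins2-AKITA replicate 2 there were 0 members, beside 44.9% of all genes. Where an Ins2-AKITA mouse was left out, the other was assumed to vary like the WT mice.

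The replicate numbers were not shown to pair the mice: the deviations of same-numbered mice correlated at 0.051 and -0.034 over genes. The Ins2-AKITA mice deviate from their mean by equal and opposite amounts. Each WT mouse therefore correlates with them equally and oppositely, so this check cannot decide whether the numbers pair the mice. With the replicate block, *Aqp4* was at 0.98 (limma adjusted p = 0.60, from 0.011 unadjusted), *Mlc1* at 0.62 (adjusted p = 0.60, from 0.033 unadjusted) and *Utrn*/*Dmd* at 0.18, and the calls over all genes were 0 higher and 5 lower; WT replicate 3 has no partner and adds nothing there, so these fold changes equal those without it. Depth, between 1130000 and 2866000 fragments, limits *Sntb1* most.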
